A study of Mus musculus with 12 samples.

Results

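Expression of 10 genes of hepatic de novo lipogenesis was described in mouse liver: the enzymes Acly, Acaca, Acacb, Fasn, Elovl6, Scd1 and Scd2 and the regulators Srebf1, Mlxipl and Thrsp. The genes were chosen by name, for their place in the pathway, with earlier results of these data known. Their counts beside those of all genes are therefore a description. Each matched exactly 1 of the 55357 rows of the gene count table. All 10 passed the filter on low counts. In short, CDAHFD lowered 8 of the 10 in WT liver, with Scd1 58.4-fold and Thrsp 17.3-fold lower, and raised Scd2, in a comparison in which 25.0% of all genes tested were lower and 26.1% higher. Loss of hepatocyte PPARα on chow lowered Mlxipl, Thrsp, Acacb and Elovl6 and raised Scd2, where 17.0% of all genes were lower and 22.0% higher. The calls of Acacb and Elovl6 were lost in 6 and 5 of 20 alternatives, library size only among them. Scd1 did not pass the test for genotype on either diet.

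RNA was sequenced from the livers of male C57BL/6J mice that were 7 weeks old when the diets began and were fed for 6 weeks. WT mice carried floxed Ppara alleles (PPARα fl/fl) without Cre, and KO mice carried the same alleles with Cre driven by the Albumin promoter, which removes PPARα from hepatocytes and leaves it in other liver cells. The diets were chow and CDAHFD, a diet rich in fat, without choline and made with defined amino acids, that takes more of its energy from fat and less from carbohydrate than chow. The groups held 4 libraries for WT chow, 3 for WT CDAHFD, 2 for KO chow and 3 for KO CDAHFD. Each library was taken as 1 mouse. The study's methods give 3 mice per group, which these numbers do not match, and KO chow replicate 2 is numbered 3 in its label. This was not resolved.

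Total counts ran from 29906785 to 43551003 per library. Levels are given as CPM, counts scaled to each library's total after TMM correction. Ppara, the targeted gene, was at 120, 96.2, 238 and 226 CPM in WT chow, 59.5, 75.5 and 73.5 in WT CDAHFD, 14.4 and 38.7 in KO chow, and 36.3, 20.7 and 51.9 in KO CDAHFD. Every KO library was below every WT library. The KO lowered Ppara on chow (log2 fold change −2.68, SE 0.50, edgeR adjusted p = 0.00111), and the difference on CDAHFD did not pass (−0.94, SE 0.42, adjusted p = 0.547). The diet itself lowered Ppara in WT (−1.29, SE 0.40, adjusted p = 0.0163), and this call was lost with library size only (−0.71, adjusted p = 0.14). Genes of the circadian clock separated the libraries within groups. Dbp, a clock output factor that peaks late in the day, was above its opposite-phase partner Arntl in 4 libraries (WT chow 3 and 4, KO chow 2 and KO CDAHFD 3) and below it in the other 8, which include all of WT CDAHFD. Ppara was highest in WT chow 3 and 4, and without the 4 libraries its differences were −0.64 for diet in WT (adjusted p = 0.0334), −2.91 for genotype on chow (adjusted p = 0.000329) and −1.29 for genotype on CDAHFD (adjusted p = 0.0463). Hepatocyte markers also moved with the groups: the summed level of 7 markers lay between 82390 and 101100 CPM in WT chow and between 71630 and 81850 in KO chow, and was lower on CDAHFD, at 42400 to 51930 CPM in the WT group and 40200 to 55090 in the KO group. In bulk liver, fewer hepatocytes and less RNA per hepatocyte cannot be told apart. Alb made up most of the summed level, at a mean of 68660 CPM in WT chow and 37800 in WT CDAHFD. None of the 7 hepatocyte markers was at 0 in any library.

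De novo lipogenesis turns surplus carbohydrate into fatty acids. Acly makes cytosolic acetyl-CoA from citrate, Acaca and Acacb carboxylate it to malonyl-CoA, Fasn builds palmitate, Elovl6 lengthens it, and stearoyl-CoA desaturases such as Scd1 make it monounsaturated. In liver the pathway is switched on after feeding by SREBP-1c, the insulin-responsive product of Srebf1, and by ChREBP, the carbohydrate-responsive product of Mlxipl. PPARα is best known for the opposite arm, the oxidation of fatty acids in fasting.

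The sequences before the transcription starts show which of the factors' recognition letters stand close to these genes. RefSeq windows (GRCm38.p6) were found for 8 of the 10 genes, all but Scd1 and Scd2, with 11 windows in all. The only windows for Acaca (chr11:84195188-84195437) and Acacb (chr5:114165268-114165517) lie inside the annotated bounds of these genes. The 250 bases before the start are shown for Fasn, Acly and Mlxipl, since these hold the motifs of 3 different factor families and no annotated exon. Each runs 5′ to 3′ on the gene's own strand, with motif matches on either strand in capitals. The windows are chr11:120824548-120824797 (minus strand) for Fasn, chr11:100528001-100528250 (minus strand) for Acly and chr5:135089640-135089889 (plus strand) for Mlxipl. In Fasn the capitals mark the NF-Y box CCAAT or its complement, a pair of which overlap. In Acly they mark the GC box GGGCGG or its complement. In Mlxipl they mark GC boxes, an NF-Y box and the E-box CACGTG.
Fasn: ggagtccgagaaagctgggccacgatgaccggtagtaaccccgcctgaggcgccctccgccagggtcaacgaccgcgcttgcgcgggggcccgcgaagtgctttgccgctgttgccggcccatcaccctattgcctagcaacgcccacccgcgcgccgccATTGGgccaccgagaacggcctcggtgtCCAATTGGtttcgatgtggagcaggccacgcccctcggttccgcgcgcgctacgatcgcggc
Acly: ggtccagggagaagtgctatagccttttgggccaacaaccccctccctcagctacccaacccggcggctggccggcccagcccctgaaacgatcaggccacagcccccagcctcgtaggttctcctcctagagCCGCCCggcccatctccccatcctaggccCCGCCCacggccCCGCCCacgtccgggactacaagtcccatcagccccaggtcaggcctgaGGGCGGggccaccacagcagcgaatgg
Mlxipl: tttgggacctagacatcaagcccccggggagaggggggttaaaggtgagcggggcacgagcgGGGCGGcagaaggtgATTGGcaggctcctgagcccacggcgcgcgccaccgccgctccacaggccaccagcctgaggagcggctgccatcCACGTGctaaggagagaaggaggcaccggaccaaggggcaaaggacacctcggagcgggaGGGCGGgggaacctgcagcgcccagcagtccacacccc
The NF-Y box stood in 6 of the 11 windows and in 33.8% of the 32851 windows of all genes. The GC box stood in 4 of the 11 windows and in 32.7% of all windows. The E-box stood only in the Mlxipl window shown among the 11, and in 6.02% of all windows. The sterol regulatory element, searched as TCACNCCAC, stood in another Mlxipl window among the 11 (chr5:135106641-135106890) and in 1.05% of all. The D-box TTATGTAA, which Dbp and its relatives bind, and the PPAR response element, AGGTCA repeated after 1 free base, had no match in the 11 windows, against 0.819% and 0.0335% of all windows. These matches are a description of the letters in these windows.

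**Figure D1:**
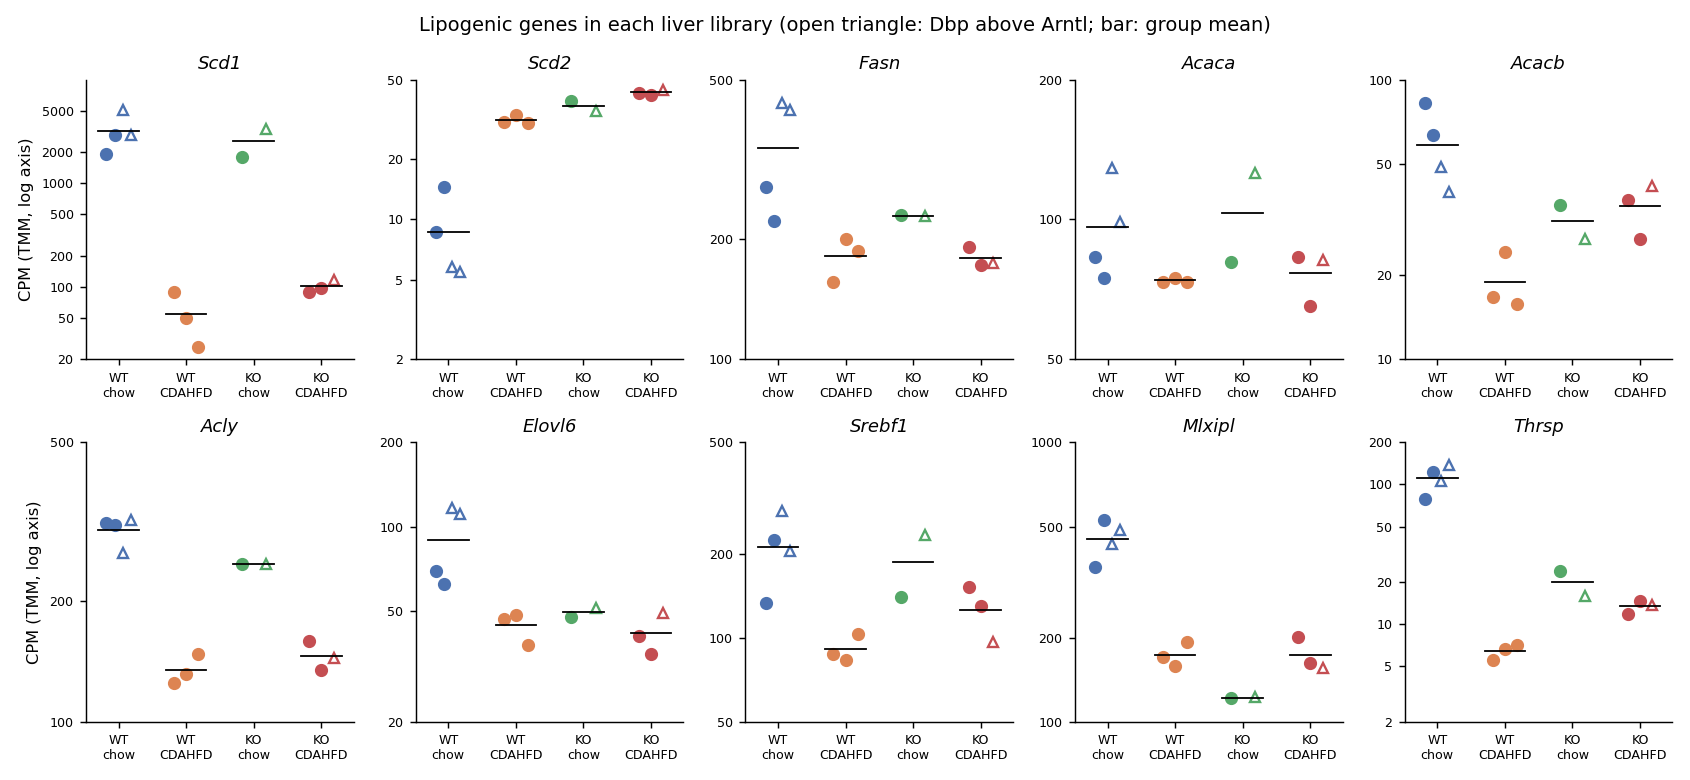
CPM (TMM library sizes, log axis) of the 10 lipogenic genes in each of the 12 liver libraries by group. Bars are group means and open triangles are the 4 libraries with Dbp above Arntl. Scd1 separates by diet in both genotypes, and Scd2, Mlxipl, Thrsp, Elovl6 and Acly set WT chow apart from the other 3 groups. For Fasn and Elovl6 the 2 WT chow triangles lie above the 2 WT chow circles.

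In WT mice 8 of the 10 genes were lower on CDAHFD than on chow and 1, Scd2, was higher, at an adjusted p under 0.05 in edgeR's quasi-likelihood test. Over all 17358 genes tested, 25.0% were lower and 26.1% higher in that comparison. In KO mice 2 genes were lower on CDAHFD (Scd1 and Acly) and 0 were higher, beside 2.44% and 3.76% of all genes. On chow, KO livers had 4 of the genes lower (Mlxipl, Thrsp, Acacb and Elovl6) and 1 higher (Scd2) than WT, beside 17.0% and 22.0% of all genes. On CDAHFD 0 genes were higher and 0 lower in KO, beside 0.0864% and 0.271% of all genes. At an unadjusted p under 0.05, 2 of the 10 (Acacb and Thrsp) were higher there, beside 4.76% of all genes, and DESeq2 called 1 (Thrsp) higher, beside 0.657% of all genes. The comparisons of diet in WT and of genotype on chow share the 4 WT chow libraries, so their values are given side by side and not as separate evidence.

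Srebf1 (ENSMUSG00000020538, chr11:60199089-60222581, minus strand, GRCm38) encodes SREBP-1c and SREBP-1a. It was at 134, 224, 284 and 204 CPM in WT chow, 87.5, 83.3 and 103 in WT CDAHFD, 140 and 234 in KO chow, and 152, 130 and 96.8 in KO CDAHFD. All WT chow libraries were above all WT CDAHFD libraries, while the ranges of KO chow and WT chow overlapped. The diet lowered Srebf1 in WT (log2 fold change −1.21, SE 0.25, adjusted p = 0.00138). In KO the difference was −0.57 (SE 0.28, 95% interval −1.19 to 0.05, adjusted p = 0.257). Genotype made a difference of −0.18 on chow (interval −0.77 to 0.42) and of 0.47 on CDAHFD (interval −0.09 to 1.02), and neither passed. The libraries do not mark strand, and 109 exon bases of Srebf1 are shared with Rai1 on the opposite strand, whose counts were 12.8% of those of Srebf1, so reads from the shared bases cannot be assigned to either.

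Mlxipl (ENSMUSG00000005373, chr5:135089890-135138382, plus strand) encodes ChREBP, the glucose-responsive activator of the pathway. It was at 359, 527, 434 and 486 CPM in WT chow, 171, 159 and 193 in WT CDAHFD, 121 and 122 in KO chow, and 201, 162 and 156 in KO CDAHFD. WT chow stood above the other 3 groups with no overlap, and KO chow was the lowest group. In WT the diet lowered Mlxipl (−1.38, SE 0.15, adjusted p = 6.71e-06), and on chow the KO lowered it (−1.89, SE 0.17, adjusted p = 4.37e-06). In KO the diet difference had the opposite sign (0.51, SE 0.17, adjusted p = 0.0999) and did not pass, though the ranges did not overlap. DESeq2 called this difference (0.54, adjusted p = 0.03), and so did edgeR with library size only (0.71, adjusted p = 0.0176). So did edgeR without WT chow replicate 1 (0.53, adjusted p = 0.0404), a library outside this comparison. In 17 of 20 alternatives it did not pass. Between genotypes on CDAHFD the difference was close to 0 (interval −0.33 to 0.32). The diet effects in KO and WT differed by 1.88 (SE 0.22, adjusted p = 8.58e-05).

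Thrsp (ENSMUSG00000035686, chr7:97412938-97417730, minus strand) encodes Spot 14, a small nuclear and cytosolic protein induced by thyroid hormone and carbohydrate that promotes lipogenesis. It was at 78.7, 122, 107 and 137 CPM in WT chow, 5.57, 6.60 and 7.08 in WT CDAHFD, 24.0 and 16.0 in KO chow, and 11.8, 14.6 and 13.7 in KO CDAHFD. No ranges overlapped, and the order from high to low was WT chow, KO chow, KO CDAHFD and WT CDAHFD. The diet lowered Thrsp 17.3-fold in WT (−4.11, SE 0.22, adjusted p = 3.20e-08), and the KO lowered it 5.56-fold on chow (−2.48, SE 0.24, adjusted p = 5.55e-06). The diet difference in KO was −0.58 (SE 0.22, interval −1.06 to −0.10, adjusted p = 0.144). On CDAHFD Thrsp was at a higher level in each KO library than in each WT library, by 1.06 (SE 0.21, adjusted p = 0.0535), which narrowly missed the threshold and passed it in 9 of 20 alternative analyses. Leaving out WT chow replicate 1 or 4 gave the call in edgeR, with adjusted p of 0.0151 and 0.0456, though neither library is part of this comparison. Without KO chow replicate 1 or 2, also outside it, the difference was 1.069 and 1.055. Only the difference is given for these, since each fit leaves a lone KO chow library. No left-out CDAHFD library gave the call, and the adjusted p over the alternatives reached 0.324. The diet effects in the 2 genotypes differed by 3.53 (SE 0.31, adjusted p = 9.85e-06), the largest such difference among the 10 genes.

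Acly (ENSMUSG00000020917, chr11:100476353-100528000, minus strand), ATP citrate lyase, was at 315, 311, 264 and 320 CPM in WT chow, 125, 131 and 148 in WT CDAHFD, 249 in each KO chow library, and 159, 135 and 145 in KO CDAHFD. Chow libraries of either genotype were all above CDAHFD libraries, and all WT chow libraries were above the KO chow libraries. The diet lowered Acly in WT (−1.17, SE 0.11, adjusted p = 2.17e-06) and in KO (−0.77, SE 0.12, adjusted p = 0.00489). The 2 diet effects differed by 0.40 (interval 0.04 to 0.76, adjusted p = 0.102). KO and WT differed by −0.28 on chow (interval −0.54 to −0.02, adjusted p = 0.0817) and by 0.12 on CDAHFD (interval −0.13 to 0.36), and neither passed. Without WT chow replicate 3, the lowest Acly library of its group, the difference on chow passed (−0.33, adjusted p = 0.0404).

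Acaca (ENSMUSG00000020532, chr11:84129672-84401651, plus strand), the cytosolic acetyl-CoA carboxylase that supplies malonyl-CoA for synthesis, passed the test in none of the 5 comparisons. It was at 82.8, 74.7, 129 and 98.6 CPM in WT chow, 73.2, 74.9 and 73.4 in WT CDAHFD, 80.8 and 126 in KO chow, and 82.9, 65.0 and 81.8 in KO CDAHFD. The highest library of each chow group had Dbp above Arntl. The diet differences were −0.38 in WT (interval −0.80 to 0.03) and −0.43 in KO (interval −0.92 to 0.05), and the genotype differences were 0.10 on chow and 0.05 on CDAHFD.

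Acacb (ENSMUSG00000042010, chr5:114146535-114250761, plus strand) encodes the mitochondrial acetyl-CoA carboxylase, whose malonyl-CoA restrains fatty acid entry into mitochondria. It was at 82.8, 63.5, 48.6 and 39.5 CPM in WT chow, 16.7, 24.2 and 15.8 in WT CDAHFD, 35.5 and 27.0 in KO chow, and 37.1, 26.8 and 41.8 in KO CDAHFD. WT CDAHFD was the lowest group and overlapped no other, and within WT chow the 2 libraries with Dbp above Arntl were the lower ones. The diet lowered Acacb in WT (−1.63, SE 0.26, adjusted p = 0.000178), and in KO the difference was 0.17 (interval −0.46 to 0.81, adjusted p = 0.769). The diet effects differed by 1.81 (SE 0.39, adjusted p = 0.00498). On chow KO was lower than WT (−0.91, SE 0.29, adjusted p = 0.0241), but this call was lost without KO chow replicate 1 (−1.11, adjusted p = 0.0665) or 2 (−0.72, adjusted p = 0.17) and without WT chow replicate 1 (−0.68, adjusted p = 0.0558) or 2 (−0.86, adjusted p = 0.0547), with the same direction in each. With only the 2 groups compared, the difference on chow was −0.89 and did not pass in edgeR's test (adjusted p = 0.0517). On CDAHFD the KO libraries were above the WT libraries (0.90, SE 0.26), which did not pass (adjusted p = 0.275).

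**Figure D2:**
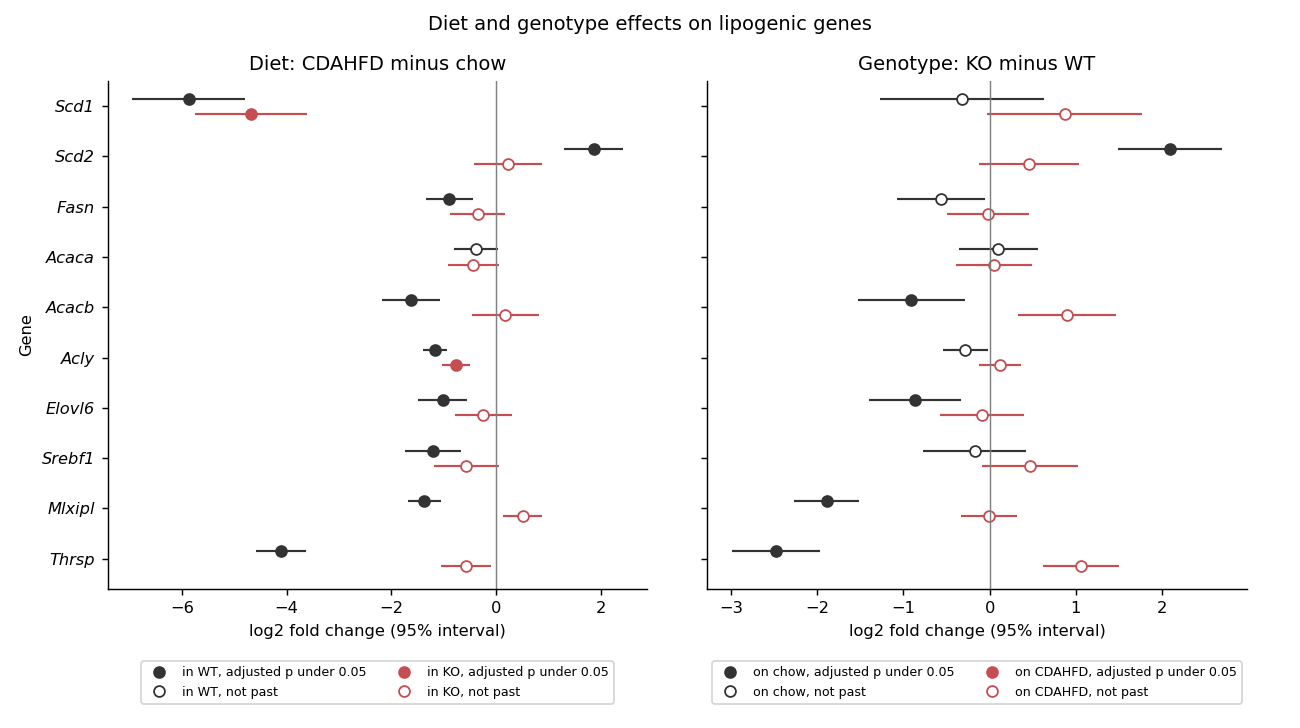
Log2 fold changes of the 10 genes with 95% intervals from the fit over 12 libraries, for diet (left) and genotype (right). Filled points have an adjusted p under 0.05. Scd1 and Acly are the genes with a filled point for diet in KO, and no point is filled for genotype on CDAHFD.

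Fasn (ENSMUSG00000025153, chr11:120805846-120824547, minus strand), fatty acid synthase, was at 269, 221, 436 and 420 CPM in WT chow, 156, 200 and 187 in WT CDAHFD, 229 and 227 in KO chow, and 190, 172 and 174 in KO CDAHFD. WT chow was above WT CDAHFD without overlap, and its 2 highest libraries were those with Dbp above Arntl. The diet lowered Fasn in WT (−0.90, SE 0.21, adjusted p = 0.00309). Without the 4 libraries with Dbp above Arntl the difference was −0.44 (adjusted p = 0.0247). The diet difference in KO was −0.35 (interval −0.87 to 0.17, adjusted p = 0.422). KO and WT differed on chow by −0.56 (interval −1.07 to −0.05, adjusted p = 0.0777). This passed without WT chow replicate 1 (−0.64, adjusted p = 0.0441) or 2 (−0.70, adjusted p = 0.0124), the WT chow libraries with Arntl above Dbp, and was −0.099 without the 4 libraries. On CDAHFD the difference was −0.018 (interval −0.49 to 0.45).

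Elovl6 (ENSMUSG00000041220, chr3:129532355-129638495, plus strand), the elongase of palmitate, was at 69.3, 62.3, 116 and 111 CPM in WT chow, 46.5, 48.4 and 37.8 in WT CDAHFD, 47.4 and 51.2 in KO chow, and 40.7, 35.1 and 49.2 in KO CDAHFD. All WT chow libraries were above all others, again with the 2 Dbp-high libraries at the top. The diet lowered Elovl6 in WT (−1.02, SE 0.21, adjusted p = 0.00159), and the difference was −0.57 without the 4 libraries (adjusted p = 0.00496). The diet difference in KO was −0.24 (interval −0.78 to 0.30). On chow the KO was lower (−0.86, SE 0.25, adjusted p = 0.0142). That call was lost without KO chow replicate 1 (−0.79, adjusted p = 0.112) or 2 (−0.92, adjusted p = 0.0575) and without the 4 libraries (−0.47, adjusted p = 0.0689). On CDAHFD the difference was −0.087 (interval −0.57 to 0.40).

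Scd1 (ENSMUSG00000037071, chr19:44394455-44407879, minus strand), the main liver desaturase that makes oleate and palmitoleate, was at 1919, 2926, 5080 and 2934 CPM in WT chow, 89.6, 49.3 and 26.1 in WT CDAHFD, 1781 and 3371 in KO chow, and 89.7, 96.1 and 116 in KO CDAHFD. The lowest chow library was far above the highest CDAHFD library in either genotype, and the 2 chow groups overlapped. The diet lowered Scd1 58.4-fold in WT (−5.87, SE 0.50, adjusted p = 1.02e-06) and 25.6-fold in KO (−4.68, SE 0.49, adjusted p = 0.000392). The 2 diet effects differed by 1.19 (interval −0.13 to 2.51, adjusted p = 0.187). KO and WT differed by −0.32 on chow (interval −1.27 to 0.63, adjusted p = 0.599) and by 0.87 on CDAHFD (interval −0.03 to 1.77, adjusted p = 0.587). On CDAHFD each KO library was above each WT library, though the nearest pair was at 89.68 and 89.58 CPM. The wide intervals leave room for a genotype difference of more than 2-fold, downward on chow and upward on CDAHFD.

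Scd2 (ENSMUSG00000025203, chr19:44293674-44306864, plus strand), the neighbouring desaturase gene that is prominent in brain and in the developing liver, ran the other way. It was at 8.62, 14.6, 5.80 and 5.46 CPM in WT chow, 30.8, 33.3 and 30.3 in WT CDAHFD, 39.2 and 34.8 in KO chow, and 43.1, 42.0 and 44.5 in KO CDAHFD. WT chow was below the other 3 groups without overlap, and its 2 lowest libraries had Dbp above Arntl. Scd2 rose 3.63-fold with the diet in WT (1.86, SE 0.26, adjusted p = 6.29e-05) and 4.27-fold with the KO on chow (2.09, SE 0.28, adjusted p = 8.05e-05). The diet difference in KO was 0.22 (interval −0.43 to 0.87, adjusted p = 0.706), and the genotype difference on CDAHFD was 0.46 (interval −0.12 to 1.04, adjusted p = 0.689). The diet effects differed by −1.64 (SE 0.39, adjusted p = 0.00902).

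The balance of the 2 desaturases shifted with the diet. Per kilobase of exon, Scd1 exceeded Scd2 by 224 to 978 times in WT chow and by 50.8 and 108 times in KO chow. On CDAHFD the ratio was 0.963 to 3.25 for WT and 2.32 to 2.91 for KO. Their annotated transcripts are similar in places: 2.97% of the 50-base stretches of Scd1 occur in Scd2, and the longest shared stretch is 147 bases, so reads of either could have been counted for the other. Scd1 was far higher than Scd2 on chow, and the part of its reads in the Scd2 count there was not tested. The highest Scd1 library, WT chow 3, was among the lowest for Scd2 (5.80 CPM). The carboxylases Acaca and Acacb share no 50-base stretch.

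Levels of different genes can be set side by side per kilobase of exon. In WT chow Scd1 was highest (mean 657 CPM per kilobase, SD 272), followed by Mlxipl (81.5, SD 13.1), Acly (57.3, SD 4.85), Thrsp (50.8, SD 11.4), Srebf1 (37.5, SD 11.0), Fasn (30.8, SD 9.83), Elovl6 (13.9, SD 4.32), Acacb (6.08, SD 1.96), Acaca (5.64, SD 1.41) and Scd2 (1.58, SD 0.772). Neighbours from Acly to Fasn, and Acacb and Acaca, had overlapping ranges. In WT CDAHFD Mlxipl was highest (31.4 CPM per kilobase, SD 3.11), Acly was next (25.5, SD 2.19), Scd1 was in place 5 (11.3, SD 6.56) and Acacb was lowest (1.96, SD 0.478).

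The test of the difference between the diet effects, KO minus WT, separated the genes into those whose diet effect depended on genotype and those without such a call. It passed for 3 of the 10 genes in the higher direction (Thrsp, Mlxipl and Acacb) and for 1 in the lower (Scd2), beside 8.63% and 14.5% of all genes tested. In each of these 4 genes the diet moved WT liver past the threshold and not KO liver. For Scd1, Acly, Fasn, Elovl6, Srebf1 and Acaca the difference did not pass. The median over the 10 genes was −1.19 for diet in WT, −0.39 for diet in KO, −0.44 for genotype on chow, 0.29 for genotype on CDAHFD and 0.71 for the difference of the diet effects, and the median of all genes lay between −0.048 and 0.012 in these comparisons.

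These values depend on how libraries are scaled. TMM factors were 0.729 to 0.827 in WT chow and 1.03 to 1.26 in the other 3 groups. Scaled by total counts alone, the median of all genes became 0.51 for diet in WT, 0.40 for genotype on chow, 0.20 for diet in KO and −0.34 for the difference of the diet effects. The lipogenic medians were then −0.63, −0.029, −0.18 and 0.35. The calls over all genes were then 9092 higher and 1170 lower for diet in WT, 7037 and 1149 for genotype on chow, 1245 and 138 for diet in KO, and 676 and 4268 for the difference. Under that scaling Fasn (−0.32, adjusted p = 0.174) and Elovl6 (−0.45, adjusted p = 0.0842) lost the call for diet in WT. For genotype on chow, Elovl6 (−0.45, adjusted p = 0.144) and Acacb (−0.52, adjusted p = 0.206) lost it. Thrsp, Mlxipl, Scd1, Acly, Acacb and Srebf1 for diet in WT, and Thrsp and Mlxipl for genotype on chow, kept it, as did Scd2 in both comparisons.

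Genes that feed, control or use the pathway were read from 7 lists of 53 genes, of which 51 passed the filter. In WT the diet lowered 32 and raised 5 of the 51, where 25.0% of all genes were lower and 26.1% higher. In KO it lowered 4 and raised 1, beside 2.44% and 3.76% of all genes. On chow the KO lowered 25 and raised 6, beside 17.0% and 22.0% of all genes. On CDAHFD 0 passed in either direction, beside 0.271% of all genes lower and 0.0864% higher. The difference of the diet effects passed for 14 in the higher and 2 in the lower direction, beside 8.63% and 14.5% of all genes. Without the 4 libraries with Dbp above Arntl the diet in WT lowered 31 and raised 5, and the KO on chow lowered 23 and raised 5. With library size only the diet in WT lowered 15 and raised 10, beside 1170 and 9092 of the 17358 genes tested, and the KO on chow lowered 11 and raised 9, beside 1149 and 7037. Under that scaling the diet in WT lowered 4 and raised 0 of the glucose and fructose list, 4 and 3 of acetyl-CoA and NADPH supply, 2 and 3 of SREBP maturation, 1 and 2 of LXR and its partners, 0 and 0 of insulin signalling, 2 and 2 of the other desaturases and elongases, and 2 and 0 of the esterification list. For the KO on chow these counts, lower and higher in the same order, were 3 and 0, 1 and 2, 1 and 1, 2 and 1, 1 and 0, 2 and 4, and 1 and 1. The medians of insulin signalling (0.12) and of the other desaturases and elongases (0.12) became positive for diet in WT. Those of acetyl-CoA and NADPH supply (0.038), SREBP maturation (0.095) and the other desaturases and elongases (0.16) became positive for genotype on chow.

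Of the 8 genes that handle glucose and fructose on the way to lipogenesis, 7 fell with the diet in WT and 5 with the KO on chow, with medians of −1.12 and −1.01. Over all genes tested 25.0% fell and 26.1% rose with the diet in WT, and 17.0% fell and 22.0% rose with the KO. The largest fall was that of Pklr, liver pyruvate kinase and a classic ChREBP target (−1.98, SE 0.31, adjusted p = 0.000178 for diet in WT, and −1.89, SE 0.36, adjusted p = 0.00129 for genotype on chow). Of the 8 genes that supply acetyl-CoA and NADPH, 5 fell and 2 rose with the diet in WT. Me1, the cytosolic malic enzyme that makes NADPH, fell by 2.33 on the log2 scale (SE 0.27, adjusted p = 1.37e-05), while G6pdx, which opens the pentose phosphate pathway, rose (2.23, SE 0.20, adjusted p = 1.71e-06). On chow the KO lowered 4 and raised 2 of these 8. Acss2, which makes acetyl-CoA from acetate, fell (−1.61, SE 0.18, adjusted p = 1.63e-05), and Pgd, the next NADPH-making enzyme of the pentose phosphate pathway, rose (1.57, SE 0.12, adjusted p = 1.20e-06).

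Among the 6 genes of SREBP maturation, 2 rose and 2 fell with the diet in WT, and 1 rose and 3 fell with the KO on chow. Over all genes 26.1% rose and 25.0% fell with the diet, and 22.0% rose and 17.0% fell with the KO. Insig1, the retention protein and itself an SREBP target, fell with the diet (−1.37, SE 0.15, adjusted p = 9.71e-06). Scap, the SREBP escort, fell with the KO on chow (−1.16, SE 0.18, adjusted p = 0.000296). Mbtps2, the protease of the last cleavage, rose slightly in each (0.39, SE 0.13, adjusted p = 0.0203, and 0.43, SE 0.14, adjusted p = 0.0288). Of 8 genes of LXR and its partners, 5 fell with the diet in WT, led by Mid1ip1 (−1.53, SE 0.25, adjusted p = 0.000263), a binding partner of Thrsp and activator of acetyl-CoA carboxylase. With the KO on chow 3 fell, led by Rxra (−0.998, SE 0.18, adjusted p = 0.000712), the shared partner of LXR and PPARα. Of 6 genes of insulin signalling, 3 fell in each comparison, led by the insulin receptor Insr (−0.79, SE 0.16, adjusted p = 0.00149 with the diet, and −0.92, SE 0.19, adjusted p = 0.00211 with the KO).

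Downstream, 9 of 11 other desaturases and elongases passed the filter. With the diet in WT 6 fell and 1 rose, and with the KO on chow 3 fell and 3 rose. Of all genes 25.0% fell and 26.1% rose with the diet, and 17.0% fell and 22.0% rose with the KO. Elovl3, an elongase of very long chains that follows the clock and sex hormones, fell most (−4.17, SE 0.78, adjusted p = 0.000693, and −3.68, SE 0.91, adjusted p = 0.00631). Elovl1 rose with the diet (0.48, SE 0.17, adjusted p = 0.0315) and Fads2, the desaturase that starts polyunsaturated fatty acid synthesis, rose with the KO (0.71, SE 0.26, adjusted p = 0.0478). Of 6 esterification genes downstream of SREBP-1c, 4 fell in each comparison, led by Dgat2, which makes triglyceride (−1.22, SE 0.14, adjusted p = 1.38e-05, and −1.10, SE 0.16, adjusted p = 0.000178).

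**Figure D3:**
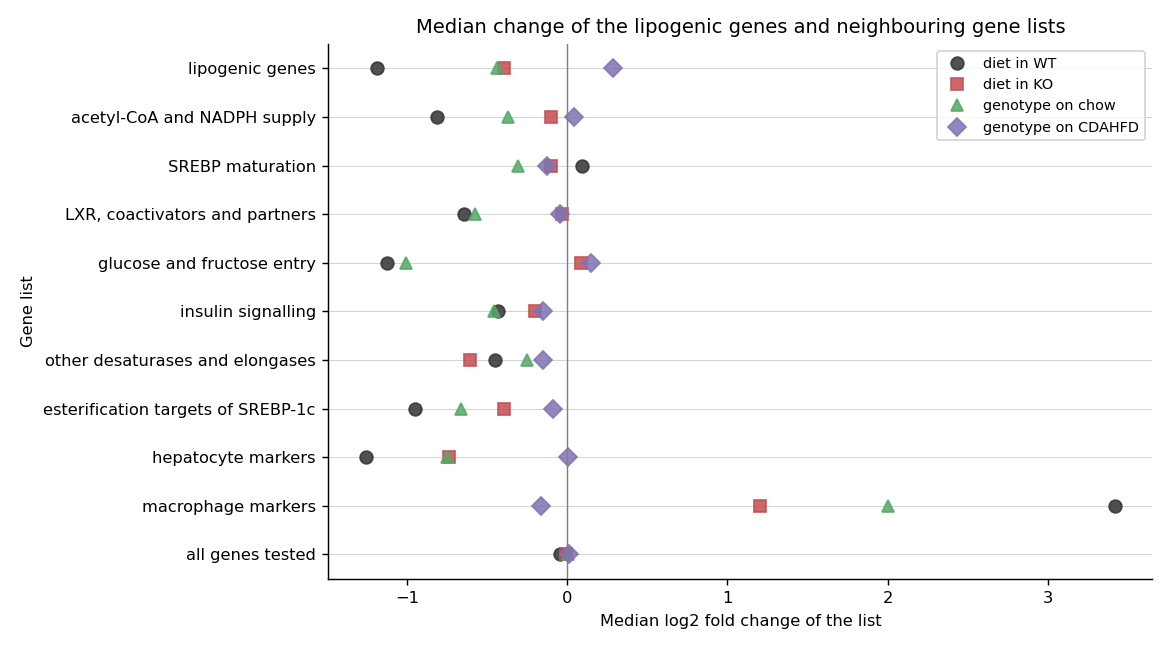
Median log2 fold change of the lipogenic genes, of the 7 neighbouring lists, of hepatocyte and macrophage markers and of all genes tested, for 4 comparisons. For diet in WT the lipogenic median (−1.19) lies near that of the hepatocyte markers (−1.26), and macrophage markers lie far to the right (3.42). Lipogenic and hepatocyte medians are further apart for diet in KO (−0.39 and −0.74), genotype on chow (−0.44 and −0.75) and genotype on CDAHFD (0.29 and 0.0078).

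Markers of liver cell types moved with the same contrasts. With the diet in WT 7 of 7 hepatocyte markers fell, with a median of −1.26, and 5 of 7 fell with the KO on chow, with a median of −0.75. Tat had a mean of 2470 CPM in KO chow against 1703 in WT chow, and no hepatocyte marker was called higher. Of all genes tested, 25.0% and 17.0% were lower in these comparisons, and 26.1% and 22.0% higher. Alb fell with the diet in WT (−0.86, SE 0.17, adjusted p = 0.0009). Macrophage markers rose for 7 of 8 in each of these comparisons, and their summed level was 224 to 418 CPM in WT chow, 1830 to 2561 on CDAHFD in WT, 858 to 953 in KO chow and 1928 to 2013 on CDAHFD in KO. Trem2, a marker of lipid-associated macrophages, was at 0.321 to 0.854 CPM in WT chow and at 57.1 to 73.1 in WT CDAHFD. Summed stellate and fibroblast markers were at 184 to 302 CPM in WT chow, at 1220 to 1431 in KO chow, and on the high-fat diet at 1484 to 1586 for WT and 1622 to 2270 for KO. Summed cholangiocyte markers ran from 46.0 to 79.4 CPM in WT chow and from 165 to 883 in the other groups. Most of that sum was Spp1. In WT CDAHFD it was 358.1 to 577.5 CPM, with means of 5.29 for Krt19, 3.28 for Krt7, 15.6 for Epcam and 24.4 for Sox9. Endothelial markers ran from 104 to 235 and lymphocyte markers from 3.44 to 8.22 over all groups. The part of these shifts in the lipogenic values was not tested. Adipose tissue also has high Scd1 and Fasn. The summed level of the 5 adipocyte markers was at most 0.107 CPM in every library, and Adipoq was at 0 in all 8 libraries outside WT chow.

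**Figure D4:**
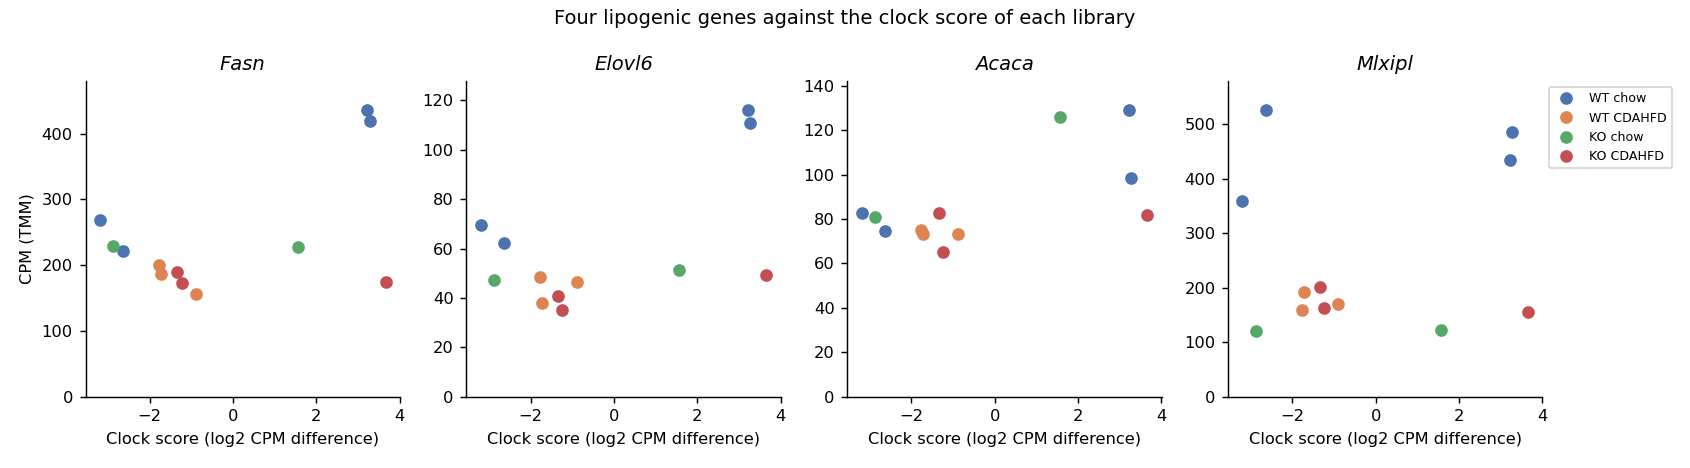
CPM (linear axis from 0) of Fasn, Elovl6, Acaca and Mlxipl against the clock score of each of the 12 libraries, which is the mean log2 CPM of 7 genes high late in the day minus that of 4 genes in the opposite phase. Among WT chow libraries Fasn and Elovl6 are higher at the scores near 3 than at those near −3. In KO chow Fasn (229 and 227 CPM), Elovl6 (47.4 and 51.2) and Mlxipl (121 and 122) are close at both scores, and Acaca (80.8 and 126) is not.

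The clock score ran from −3.20 to 3.28 within WT chow and from −1.77 to −0.89 within WT CDAHFD. The 2 KO chow libraries were at −2.88 and 1.57, and the KO CDAHFD libraries lay between −1.34 and 3.66. Removing the 4 libraries with Dbp above Arntl leaves 2, 3, 1 and 2 libraries in WT chow, WT CDAHFD, KO chow and KO CDAHFD, and the lone KO chow library is then assumed to vary like the others. The counts for diet in WT stayed at 8 lower and 1 higher, those for diet in KO at 2 and 0, and those for the difference of the diet effects at 3 higher and 1 lower. For genotype on chow the count of lower genes went from 4 to 3, without Elovl6. Sampling time was not given in the sources used here, and its part in the values was not tested.

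Over the 12 libraries, the gene outside the 10 whose log2 CPM followed each member most closely was named. Pearson r, as a description over 12 libraries that share groups, was 0.964 for Scd1 with Fh1, 0.991 for Scd2 with Mir142hg, 0.970 for Fasn with Ncbp3, 0.891 for Acaca with Bmp7, 0.907 for Acacb with D730045B01Rik, 0.973 for Acly with Mrps31, 0.984 for Elovl6 with Usp45, 0.957 for Srebf1 with Car14, 0.988 for Mlxipl with Bmp1 and 0.984 for Thrsp with 2310001H17Rik.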

How the data were processed

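Per the labels and the study's methods, the authors sequenced non-directional, poly-A selected liver libraries, checked reads with FastQC 0.11.5, aligned them to GRCm38 with STAR 2.7.3a and deposited raw read counts per Ensembl gene. The counting program, the annotation release and the handling of reads with several matches are not given in the sources used here. Groups and replicate numbers were read from GEO's titles, genotypes and treatments.

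Symbols and positions came from GENCODE M21, which holds 52081 of the 55357 identifiers (94.08%). Counts were tested in R 4.3.3 with edgeR 4.0.16. filterByExpr kept 17358 genes. After TMM scaling, a quasi-likelihood model with a mean per group was fitted over all 12 libraries, which share the estimate of the spread because KO chow holds 2 libraries. P-values of its quasi-likelihood test were adjusted by the Benjamini-Hochberg method over the 17358 genes and called under 0.05. The SE is the log2 fold change divided by the square root of F, and intervals are at 95%. CPM use TMM library sizes. Each p-value weighs a difference between groups against the spread of libraries within groups, estimated over all 12 libraries.

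The genes and lists were chosen with earlier results of these data known. Named beside the 10 genes and Ppara were the largest called change per list and direction for diet in WT and genotype on chow, marker and clock genes fixed by name, and the most correlated gene of each member. RefSeq windows came from GRCm38.p6. Alternatives were DESeq2 1.42.0, its size factors, no scaling factors, no filter, a clock covariate, 2 groups only, the replicate block, each library left out, and, chosen after seeing the data, the 4 libraries with Dbp above Arntl left out. Same-numbered libraries of different groups correlated from −0.242 to 0.266, so numbers were not taken as pairs.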

Additional observations from a re-analysis of the deposited data

Results flagged for a closer look

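The diet effect differed between KO and WT liver by edgeR's test of that difference for 4 of the 10 genes. Over all genes tested, 8.63% passed in the higher and 14.5% in the lower direction. On the log2 scale, KO minus WT, it was 3.53 for Thrsp (adjusted p = 9.85e-06), 1.88 for Mlxipl (adjusted p = 8.58e-05), 1.81 for Acacb (adjusted p = 0.00498) and −1.64 for Scd2 (adjusted p = 0.00902). Thrsp, Mlxipl and Acacb fell with CDAHFD in WT and Scd2 rose, and none of the 4 passed the test for diet in KO.

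In WT chow the lowest Acly library, replicate 3 at 264 CPM, stood apart from the other 3 libraries of 311 to 320 CPM. Its gap was 0.84 of the range of the group, above Dixon's critical value for 4 libraries. The check was made at each end for 10 genes in that group. Chance gives such a result in about 1 of 20 for a single gene, and more often over 10 genes.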

How the results depend on the processing

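Over 20 alternatives (19 for the difference of the diet effects), the 50 log2 fold changes kept their direction and their side of the threshold in 923 cases, lost the call in 13, gained it in 19 and changed sign in 35, and the cause was not tested. No sign change touched a called value. Diet in WT gave 8 lower and 1 higher gene in each left-out library. The count of genes higher for diet in KO was 1 (Mlxipl) with DESeq2 and with library size only, and 0 to 1 with a library left out. For genotype on chow the count lower was 2 with library size only and 2 to 5 with a library left out, 2 without either KO chow library. For genotype on CDAHFD the count higher was 1 (Thrsp) with DESeq2, the clock covariate, library size only or the 2 groups alone, 2 (Acacb and Thrsp) without a filter, and 0 to 1 with a library left out.

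Sign changes with library size only were Acaca for diet in WT (0.18), Scd1 (0.089), Acly (0.12) and Srebf1 (0.23) for genotype on chow, and Fasn (0.031) and Mlxipl (0.045) for genotype on CDAHFD. With the clock covariate Acaca on CDAHFD was −0.090. Without the 4 libraries with Dbp above Arntl, Acacb (−0.15) and Srebf1 (0.0033) for diet in KO and Fasn (0.00092) and Mlxipl (0.062) for genotype on CDAHFD changed sign. With a library left out, the ranges that crossed 0 were −0.015 to 0.41 for Acacb for diet in KO; −0.85 to 0.087 for Scd1, −0.25 to 0.41 for Acaca and −0.59 to 0.17 for Srebf1 for genotype on chow; −0.11 to 0.061 for Fasn, −0.0087 to 0.16 for Acaca, −0.22 to 0.023 for Elovl6 and −0.13 to 0.072 for Mlxipl for genotype on CDAHFD; and −0.34 to 0.30 for Acaca for the difference of the diet effects.

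With the replicate number as a block, genotype on chow had 3 genes lower, without Elovl6 (−0.60, adjusted p = 0.0784), and no other call of the 10 genes changed. Over all genes the block gave 640 calls for diet in KO against 1075, and 3 of 15 same-numbered pairs correlated over 0.1. Other totals moved by over 1.5 times as well. For diet in KO there were 1903 calls with DESeq2, 1727 with the clock covariate, 581 with the 2 groups alone, 600 without the 4 libraries and 233 to 1437 with a library left out. For genotype on CDAHFD there were 62 calls, against 245 with DESeq2, 176 with the clock covariate, 215 without a filter, 154 with the 2 groups alone, 113 without the 4 libraries and 26 to 75 with a library left out. Genotype on chow had 4320 calls without KO chow replicate 1 against 6763. Each member had at least 119 counts in every library.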
